A study of Homo sapiens and Mus musculus with 213 samples.

Results

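The genes described here are 10 genes of retinoic acid synthesis, breakdown, binding and reception: ALDH1A1, ALDH1A2, ALDH1A3, CYP26A1, CYP26B1, RARA, RARB, RARG, CRABP1 and CRABP2. They were chosen by gene symbol, as the rows whose Ensembl identifier carries one of these names in GENCODE, and make up 10 of the 58336 genes listed. The symbols were put forward with levels in these same libraries known, so the levels and differences of the 10 genes are given as a description, with no p-value for any single one of them.

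The study edited the promoter of MYC in HEK293T, a human embryonic kidney cell line, to ask how a G-quadruplex (G4, a 4-stranded DNA fold formed by runs of guanine) affects transcription of that gene. Polyadenylated RNA was sequenced from 3 libraries per line, and 2 lines are described here. MYC WT cells kept the natural G4, and MYC MUT cells carried point mutations in the guanine runs so that the G4 could no longer form. Both lines were grown in the same serum-containing medium, and neither retinoic acid nor another agent is named as added. The edited cells are homozygous and were grown from single sorted cells. The sources used here do not say how many clones the MYC MUT libraries came from, so the spread between libraries may not cover the spread between clones, and a property of a clone cannot be told apart from the effect of its edit.

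Retinoic acid is made from vitamin A: retinol is oxidized to retinal, and the retinaldehyde dehydrogenases ALDH1A1, ALDH1A2 and ALDH1A3 oxidize retinal to retinoic acid in a step that is not reversed. CYP26A1 and CYP26B1 are cytochrome P450 enzymes that hydroxylate and inactivate it. Inside the cell it is carried by CRABP1 and CRABP2 and binds the nuclear receptors RARA, RARB and RARG, which sit with RXR partners on paired hexamer sequences in target genes; RARB and CYP26A1 are textbook targets of this kind, and the pathway patterns the embryonic hindbrain, limbs and kidney.

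The promoter sequences of 4 of the genes are shown here. ALDH1A2 had the largest fall and CYP26B1 the only called rise among the 10 genes. RARB and CYP26A1 each had a window with the paired hexamers that such receptors are known to bind. Each printed sequence is the 250 bases before a RefSeq transcription start (GRCh38.p14), written 5′ to 3′ on the strand of the gene. Capitals mark 2 hexamers in the same orientation with 5 bases between them, where each hexamer is AGGTCA or AGTTCA or GGGTCA or GGTTCA on either strand.
ALDH1A2, chr15:58065712-58065961, minus strand: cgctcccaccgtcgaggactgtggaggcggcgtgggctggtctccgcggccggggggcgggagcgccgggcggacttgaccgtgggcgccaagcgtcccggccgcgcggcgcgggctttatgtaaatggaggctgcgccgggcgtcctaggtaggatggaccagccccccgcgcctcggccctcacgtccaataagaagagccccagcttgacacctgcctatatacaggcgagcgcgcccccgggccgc
CYP26B1, chr2:72147863-72148112, minus strand: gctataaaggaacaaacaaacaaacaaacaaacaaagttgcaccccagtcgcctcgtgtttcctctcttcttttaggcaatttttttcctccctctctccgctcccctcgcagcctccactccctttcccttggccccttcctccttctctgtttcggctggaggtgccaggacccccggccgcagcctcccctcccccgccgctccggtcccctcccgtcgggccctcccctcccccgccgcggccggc
CYP26A1, chr10:93073643-93073892, plus strand: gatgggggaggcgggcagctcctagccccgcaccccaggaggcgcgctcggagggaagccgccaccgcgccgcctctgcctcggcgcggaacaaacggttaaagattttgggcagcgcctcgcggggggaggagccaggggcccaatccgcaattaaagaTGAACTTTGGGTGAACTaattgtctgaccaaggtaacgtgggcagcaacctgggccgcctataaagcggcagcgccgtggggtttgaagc
RARB, chr3:25428013-25428262, plus strand: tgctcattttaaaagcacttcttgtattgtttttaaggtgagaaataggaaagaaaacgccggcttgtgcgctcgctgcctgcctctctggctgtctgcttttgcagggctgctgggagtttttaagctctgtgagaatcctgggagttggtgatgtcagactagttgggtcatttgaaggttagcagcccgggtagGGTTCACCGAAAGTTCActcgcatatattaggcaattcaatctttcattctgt

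In RARB the pair lay 37 to 53 bases upstream of the start of the printed window. In CYP26A1 it lay 74 to 90 bases upstream, on the strand opposite to the gene. Both genes have windows at other starts too, and only the printed window of each held the pair. ALDH1A2 also has a window at another start, not printed here, and neither of its windows held the pair. Over windows reaching from 250 bases before to 50 bases after a start, 31 of 35116 RefSeq windows (0.0883%) held such a pair. All 10 genes had a window, 17 in all, and 2 of the 17 held the pair. No pair was found in the 85 windows of 54 other retinoid genes listed further on. Pairs spaced by 1 base were in 46 of the 35116 windows and pairs spaced by 2 bases in 14, and in none of the 17. These counts describe letters in the reference sequence and do not show binding in these cells.

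The 6 libraries held 68170323 to 79913764 reads on genes. MYC itself was at 20020.3, 28396 and 21580.1 normalized counts in MYC WT and 10693, 11176 and 12399.8 in MYC MUT. MYC MUT lay wholly below MYC WT, at 49.0% of its mean. MYC WT replicate 1 stood apart from its partners over all genes: the chi-square per degree of freedom of its reads was 61.1 and 42.1 against the other replicates, which differed from each other by 26.8. The headers of the 3 MYC WT libraries name a sequencing pool and those of the MYC MUT libraries do not, so whether the lines shared a pool is not known. A difference of pool could not be told apart from a difference of line. Of 8 kidney and renal progenitor markers, PAX2, LHX1 and AQP1 were at a mean of 10 normalized counts or more in each line, while PAX8, CDH16, SLC12A1 and UMOD had at most 3 reads in any library. The summed level of the 8 was 393 to 542 in MYC WT and 662 to 845 in MYC MUT. The sum of 5 fibroblast markers was 1088 to 1267 in MYC WT and 1907 to 2006 in MYC MUT, nearly all of it COL1A1, with the defining marker COL1A2 at 3 reads or fewer. The sums of 4 blood markers were 84.1 to 100.1 and 117 to 139.99, and those of 3 endothelial markers 22.4 to 41.4 and 46.2 to 65.1, with PTPRC, CD3E, PECAM1 and CDH5 at 3 reads or fewer in any library. The sums of 5 neural markers reported in this line were 73863 to 85342 and 75579 to 87345, most of it VIM; within them the mean of NEFL was 7014 in MYC WT and 14778 in MYC MUT, that of NEFH 4.48 and 11.2, and that of NEFM 12296 and 8182. The part of these markers in the differences below was not tested.

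In MYC MUT cells ALDH1A2, the most abundant of the synthesis genes, fell to 16.6% of its MYC WT level, CYP26A1 and CRABP2 also fell, and CYP26B1 rose to 178%. The receptor genes differed from MYC WT by -0.21 to 0.10 on the log2 scale. Differences are of the mean log2(normalized count + 1) over 3 libraries a line, with the standard error (SE) from a limma fit over all 20884 genes with a mean of at least 10 normalized counts; a gene is called at an adjusted p under 0.05 and a difference beyond 0.5 on the log2 scale. Of the 10 genes 9 were tested, and CRABP1 had no read in any library. Between MYC MUT and MYC WT 4 of the 9 were called, beside 21.4% of all genes tested: 1 higher (11.3% of all genes) and 3 lower (10.1%). Because the genes were put forward with these results known, nothing is read from the counts. The median of the 9 differences was -0.10, beside -0.00 over all genes tested. Scaling the libraries to equal totals moved the share of higher genes among all those called from 52.8% to 64.2%. In bulk RNA, fewer cells expressing a gene and less RNA per cell cannot be told apart.

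**Figure D1:**
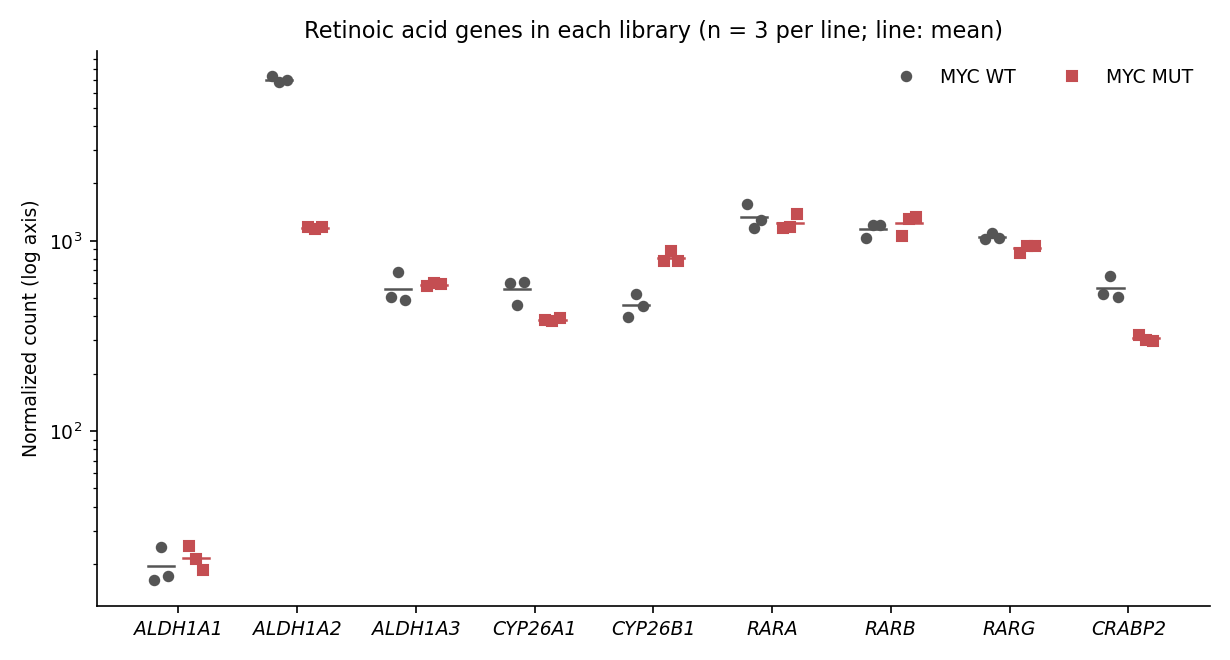
Normalized counts (log axis) of the 9 genes with reads in each of the 6 libraries; each point is 1 library, circles MYC WT and squares MYC MUT, and the short line is the mean of 3. ALDH1A2 lies at 1148 to 1188 in MYC MUT and at 6799 or more in MYC WT, while the points of RARA and RARB overlap between the lines.

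ALDH1A2, on the minus strand of chromosome 15 (57953424 to 58497866, GENCODE 44), had by far the highest level of the synthesis genes in MYC WT cells. Its normalized counts were 7346, 6799 and 6972 in MYC WT and 1188, 1148 and 1176 in MYC MUT. The MYC MUT libraries were all far below those of MYC WT. In log2 units ALDH1A2 fell by 2.59 ± 0.06 (SE, n = 3) in MYC MUT, a mean of 1171 ± 20.4 (SD) against 7039 ± 279. An unnamed long non-coding RNA inside the gene on the same strand, ENSG00000274719, was at 20.4 ± 5.20 in MYC WT and 1.30 ± 1.12 in MYC MUT (mean ± SD); how reads on overlapping genes were assigned is not given in the sources used here. The antisense gene ALDH1A2-AS1 was at a mean of 2.50 and 1.91. Among the 63 tested genes within 5 Mb of ALDH1A2, 12 were called in MYC MUT, beside 21.4% of all genes tested. The median difference of the 63 was 0.02. The same medians around the other 9 genes ran from -0.16 to 0.11.

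ALDH1A3, the form of the enzyme known from eye, nasal and several tumour tissues, had normalized counts of 507, 685 and 486 in MYC WT and 575, 601 and 589 in MYC MUT. MYC MUT lay within the range of MYC WT, with a difference of 0.09 ± 0.17. ALDH1A1, the main form in adult liver, was low, at 16.4, 24.7 and 17.3 in MYC WT and 25.0, 21.4 and 18.5 in MYC MUT. The lines overlapped, and the difference of 0.16 ± 0.27 was not detectable at this depth.

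Since levels of different genes compare only per length, the counts were divided by the length of the canonical transcript in kilobases. Per kilobase, ALDH1A2 supplied 92.4% ± 1.59 (SD, n = 3) of the summed synthesis level in MYC WT and 65.8% ± 0.77 in MYC MUT. ALDH1A3 supplied 7.18% ± 1.49 and 32.3% ± 0.89. ALDH1A2 was therefore still the highest of the 3 synthesis genes in MYC MUT, with 346 normalized counts per kilobase against 170 for ALDH1A3. The summed level of the 3 genes was 2249 ± 64.4 per kilobase in MYC WT and 526 ± 3.02 in MYC MUT.

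The breakdown enzymes moved in opposite directions in MYC MUT. CYP26B1, which clears retinoic acid in the developing hindbrain, limb and gonad, had normalized counts of 398, 524 and 452 in MYC WT and 780.2, 888 and 779 in MYC MUT. Each MYC MUT library was above each MYC WT library. In MYC MUT, CYP26B1 rose by 0.84 ± 0.12 in log2 units, from a mean of 458 ± 63.4 to 816 ± 62.2 (SD).

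CYP26A1, whose promoter window with the paired hexamers is printed above, had normalized counts of 602, 460.2 and 610.3 in MYC WT and 382, 377 and 392 in MYC MUT. MYC MUT was below MYC WT in every library, at 68.8% of its mean. CYP26A1 fell by 0.53 ± 0.12 in MYC MUT, just past the limit of 0.5. The call was lost without MYC WT replicate 1 (-0.47), without MYC WT replicate 3 (-0.46) and with libraries scaled to equal totals (-0.45). Per kilobase, the sum of CYP26A1 and CYP26B1 was 364 ± 28.4 in MYC WT and 360.2 ± 11.3 in MYC MUT, so that the sum in MYC MUT lay within the range of MYC WT. CYP26B1 made up 27.9% ± 5.90 of that sum in MYC WT and 49.7% ± 2.25 in MYC MUT. The ratio of summed synthesis to summed breakdown levels was 6.21 ± 0.49 in MYC WT and 1.46 ± 0.05 in MYC MUT, with no overlap between the lines. This is a ratio of RNA levels, and neither enzyme activity nor retinoic acid was measured.

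**Figure D2:**
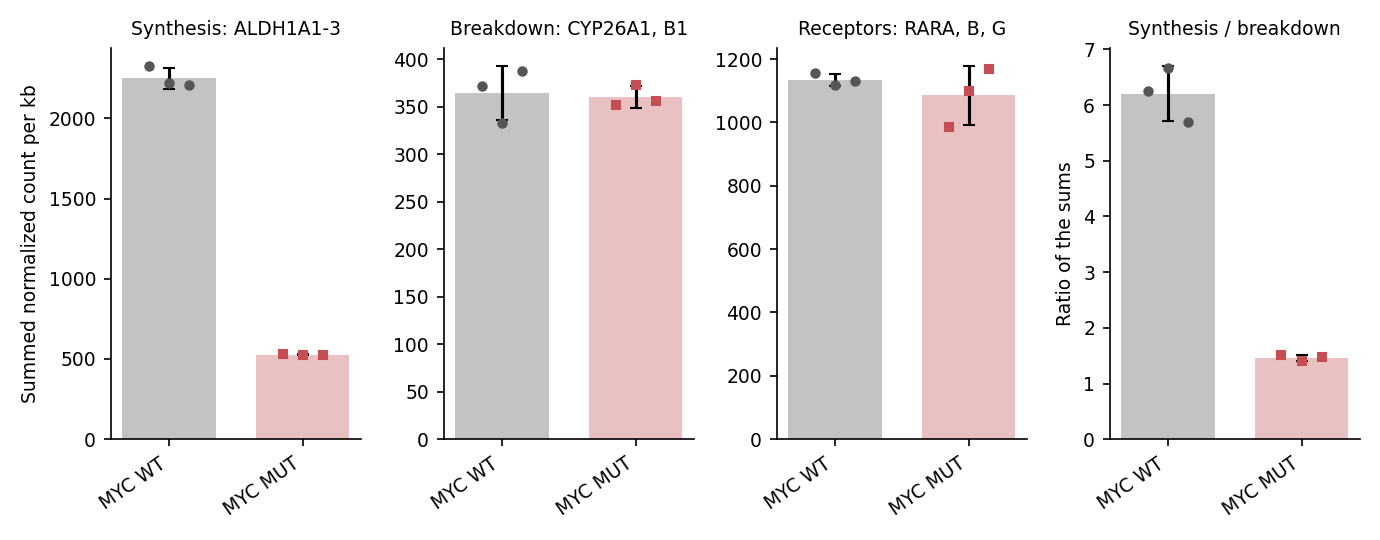
Summed normalized counts per kilobase of the synthesis genes, the breakdown genes and the receptors, and the ratio of synthesis to breakdown, in MYC WT and MYC MUT; bars are means of 3 libraries, error bars the SD and points single libraries. The synthesis sum is 526 in MYC MUT against 2249 in MYC WT, while the breakdown sums are 360.2 and 364.

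RARA, a receptor expressed in most tissues, was at 1551, 1162 and 1284 normalized counts in MYC WT and 1163, 1180.2 and 1376 in MYC MUT. The lines overlapped, with a difference of -0.10 ± 0.13. RARA-AS1, which overlaps RARA on the other strand, was at 85.5 ± 35.6 and 96.3 ± 17.2 (mean ± SD). RARB, the receptor whose own gene is a target of retinoic acid and whose promoter pair is printed above, was at 1032, 1207 and 1206 in MYC WT and 1058, 1304 and 1340.4 in MYC MUT. Its lines overlapped too, and the difference of 0.10 ± 0.11 was within the spread between libraries.

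RARG, the receptor prominent in skin and cartilage, was at 1027, 1100.0 and 1028 in MYC WT and 858, 943 and 934 in MYC MUT. MYC MUT lay wholly below MYC WT, by -0.21 ± 0.15, without a call. Summed per kilobase, the receptors were at 1134 ± 19.4 in MYC WT and 1085 ± 91.8 in MYC MUT, and RARB made up 32.4% ± 3.33 and 36.2% ± 1.85 of the sum.

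CRABP2, which carries retinoic acid to its nuclear receptors, was at 527, 649.9 and 509 normalized counts in MYC WT and 319.8, 302 and 299 in MYC MUT. Every MYC MUT library was below every MYC WT library. In MYC MUT, CRABP2 fell by 0.86 ± 0.23 in log2 units, to 54.6% of the MYC WT mean. CRABP1, the other carrier, was at 0 reads in all 6 libraries. A count of 0 allows up to 3 reads, or 2.77 to 3.37 normalized counts a library, for counting error only.

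**Figure D3:**
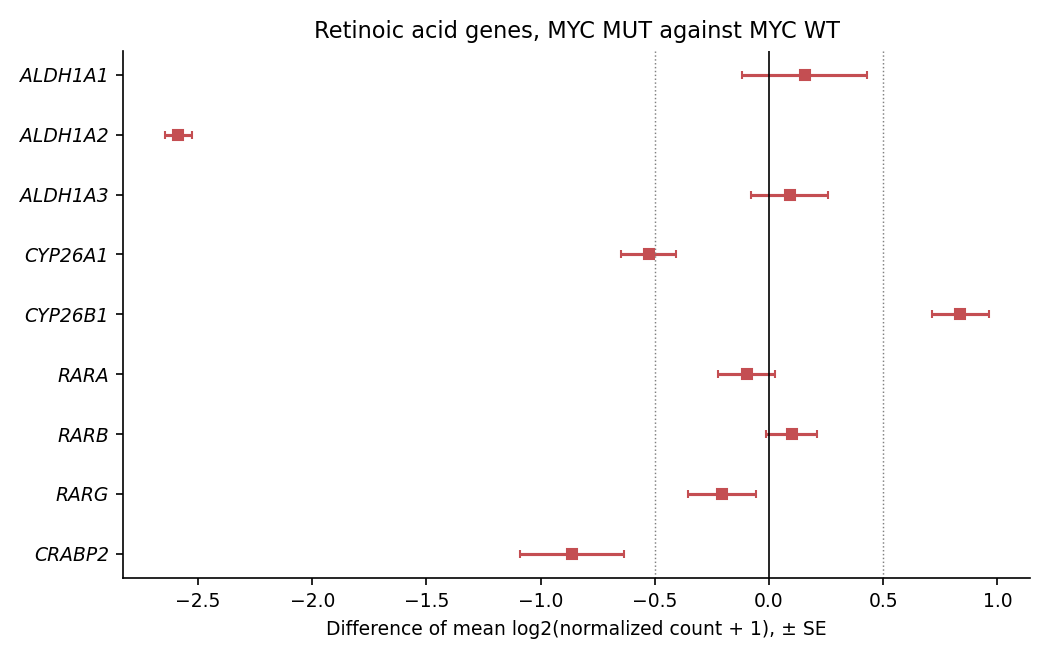
Difference in mean log2(normalized count + 1) of MYC MUT from MYC WT for the 9 tested genes; squares are the differences, bars the SE (n = 3 per line) and dotted lines the limit of 0.5 either way. ALDH1A2 (-2.59), CRABP2 (-0.86), CYP26A1 (-0.53) and CYP26B1 (0.84) were called.

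The order of levels per kilobase differed between the lines. In MYC WT, ALDH1A2 came first at 2079 ± 82.5 (SD) normalized counts per kilobase, followed by CRABP2 at 577 ± 78.7 and then RARA, RARB and RARG at 407, 367 and 361, whose neighbours in the order overlapped. CYP26A1 (263), ALDH1A3 (161), CYP26B1 (101) and ALDH1A1 (9.29) followed without overlap between neighbours. In MYC MUT, RARB (394 ± 49.1) and RARA (379 ± 36.2) came first by their means, with ALDH1A2 next at 346 ± 6.02; its libraries (339 to 351) lay within the range of RARB (338 to 428) and below those of RARA. CRABP2 (315) and RARG (313) followed and overlapped each other. CYP26A1, CYP26B1 and ALDH1A3 were then at 181, 179 and 170, each overlapping the next.

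The genes whose profile was most like that of ALDH1A2 over all 9 RNA libraries of the series were LINC01605, SERAC1 and PCMT1, with Pearson correlations of log2(normalized count + 1) of 0.998, 0.996 and 0.996. LINC01605 was at a mean of 774 normalized counts in MYC WT and 231 in MYC MUT, SERAC1 at 2618 and 1367, and PCMT1 at 13428 and 8087. For CRABP2 the most alike were TRPC4, COL23A1 and LDHD (0.978, 0.974 and 0.973). The 9 points are sets of 3 libraries of the same line, so a correlation mostly reflects differences between lines, and these genes were picked as the highest of 20884.

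Around these genes, 75 others of retinoid transport, metabolism and response were examined, and 52 of them passed the filter. Against MYC WT, 11 of the 52 were called in MYC MUT, 6 higher and 5 lower, against the 21.4% of all genes; 7 were called without MYC WT replicate 2. The median difference of the 52 was -0.06, beside -0.00 over all genes. Adjusted p-values below are from limma with Benjamini-Hochberg adjustment over all 20884 genes. These lists too were chosen with earlier results of these data known. The p-values therefore describe a difference relative to the spread between libraries and are not independent tests of the genes named. The counts of called genes in each list are likewise given as a description.

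The largest called differences among these genes were in enzymes that interconvert retinol and retinal. DHRS3, which reduces retinal back to retinol, had normalized counts of 827, 1012 and 949 in MYC WT and 276, 401 and 319 in MYC MUT, with no overlap between the lines. It fell by 1.49 ± 0.14 in MYC MUT (adjusted p = 1.45e-05). RDH12, another retinal reductase, was low, at 24.6, 29.2 and 33.7 in MYC WT and 53.6, 53.5 and 40.9 in MYC MUT, and rose by 0.74 ± 0.25 (adjusted p = 0.0341, with the call kept in 11 of 16 alternatives). AKR1C3, an aldo-keto reductase that also acts on retinal, was at 2.05, 7.86 and 0.963 in MYC WT and 59.2, 67.1 and 47.7 in MYC MUT. It rose by 3.96 ± 0.55 (adjusted p = 0.000229; 2.34 to 4.58 over the alternatives, with 1 to 7 reads a library in MYC WT), although reads may be shared with near-identical AKR1C genes. Of the 10 tested dehydrogenases and reductases, 2 were called higher and 1 lower, beside 11.3% and 10.1% of all genes.

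Of 5 tested genes of uptake, transport and storage, 2 were called lower in MYC MUT, beside 10.1% of all genes. DGAT1, which can esterify retinol as well as making triglycerides, was at 2021, 2451 and 2561 in MYC WT and 1373, 1523 and 1486 in MYC MUT, a fall of 0.68 ± 0.10 (adjusted p = 0.000341). Of 3 other oxidizing enzymes, CYP1B1, a P450 able to oxidize retinol, rose by 1.17 ± 0.26 (adjusted p = 0.00426). CYP2S1, a P450 reported to act on retinoic acid, rose by 0.57 ± 0.15 (adjusted p = 0.0100). Its libraries lay at 317 to 402 in MYC WT and 508 to 536 in MYC MUT, so the lines did not overlap.

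Among 7 tested partners and other receptors, 2 were called lower in MYC MUT, beside 10.1% of all genes. FABP5, a fatty acid carrier that also binds retinoic acid, fell by 0.79 ± 0.15 (adjusted p = 0.00204), from 417, 327 and 425 to 242, 208 and 222. RORA, an orphan receptor of the nuclear family, fell by 0.50 ± 0.13 (adjusted p = 0.0116), at the limit, with the call kept in 12 of 17 alternatives. The 12 cofactors had a median difference of -0.09. Of 15 tested genes known to respond to retinoic acid, 2 were called in MYC MUT, both higher, beside 11.3% of all genes called higher. These were HOXA4 by 0.65 ± 0.13 (adjusted p = 0.00207) and NR2F1, a nuclear receptor of neural development, by 0.50 ± 0.12 (adjusted p = 0.00686). The NR2F1 difference was at the limit, with the call kept in 15 of 17 alternatives. The median difference of the 15 was 0.05. RARB and CYP26A1, named above as textbook targets, were counted among the main genes and are not in this list. CYP26A1 was called lower (-0.53), with the call kept in 14 of 17 alternatives, and RARB was not called (0.10). HOXA4 and NR2F1 were thus called higher and CYP26A1 lower. The list does not hold every gene that responds to retinoic acid, so no shared direction is read from these calls. HOX genes overlap antisense and neighbouring transcripts, and the use of strand in counting is not given.

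**Figure D4:**
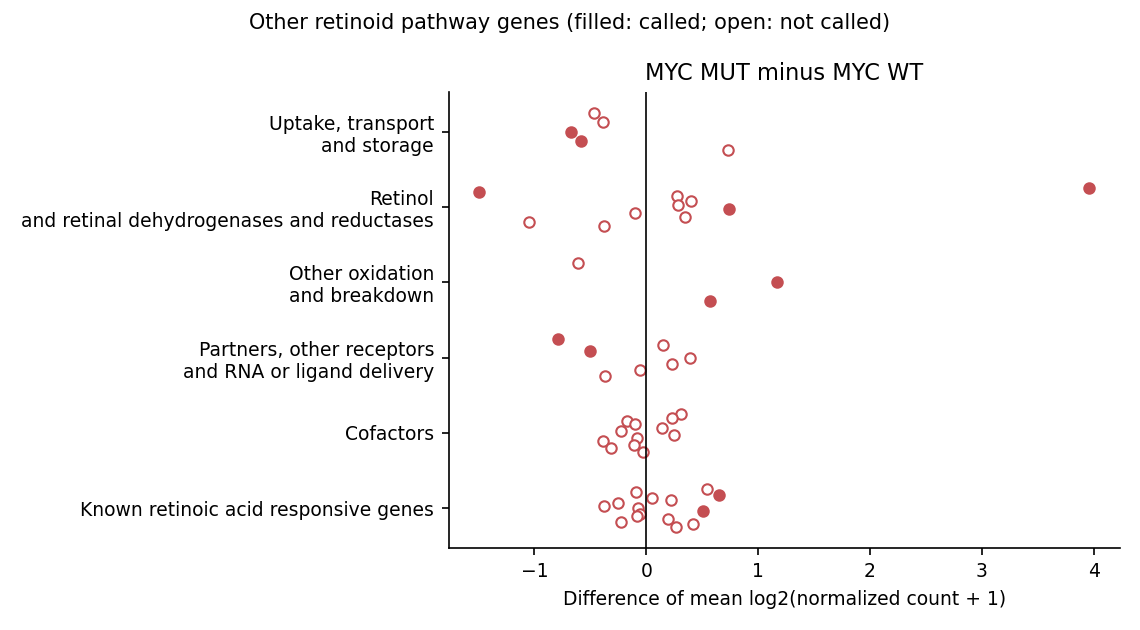
Difference in mean log2(normalized count + 1) of MYC MUT from MYC WT for the 52 tested retinoid genes outside the main 10, by list; each point is 1 gene, filled where called. In all 11 points are filled, among them AKR1C3 at 3.96 and DHRS3 at -1.49.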

How the data were processed

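RNA was measured in 9 libraries, 3 per line; a further edited line entered the fit, so that all libraries share 1 estimate of the spread, and its results are not reported here, nor is 1 gene of the lists. Per the study's methods, the authors aligned reads to hg38 with bwa mem 0.7.17, which is not splice-aware, so reads across exon junctions may be lost or clipped, marked duplicates with Picard and used GENCODE annotation. The counting tool, its use of strand and the handling of duplicates in counting are not given in the sources used here. The authors deposited a normalized signal per gene, the read count divided by 1 DESeq2 size factor per library. 100% of the values above 0 were whole multiples of the smallest (tolerance 1e-06), so whole reads were recovered. Genes with a mean of at least 10 normalized counts were tested with limma 3.58.1 (R 4.3.3) on log2(value + 1), all 9 libraries in 1 fit with a trend, with Benjamini-Hochberg adjustment. Alternatives were edgeR 4.0.16 and DESeq2 1.42.0 on the reads, other pseudocounts, filters and scalings, a replicate block, and leaving out each library. The scripts were tested on simulated data. Named genes were the 10, MYC, the called genes of each list with the largest differences (up to 3 a direction), genes overlapping a member, and the 3 most correlated genes for the 2 members that differed most. Members and lists were chosen with earlier results of these data known. Replicates are labelled biological, and p-values measure only the spread between them. Other assays of the series were not analysed here.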

Additional observations from a re-analysis of the deposited data

How the results depend on the processing

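With 3 libraries a line, an exact permutation test of a single gene cannot give a p under 0.1, and library depth limits ALDH1A1 and CRABP1. Of the 10 genes, 3 to 4 were called in MYC MUT against MYC WT over all 17 alternatives. Apart from leaving out a library, 108 of 109 recomputed differences kept their direction and call. The equal-totals scaling took CYP26A1 to -0.45 and below the call limit, and leaving out 1 library gave it -0.66 to -0.46. Leaving out 1 library turned the sign of 2 uncalled differences: ALDH1A3 ranged from -0.0028 to 0.24 and RARA from -0.19 to 0.017. Of the other retinoid genes, 7 to 12 were called when 1 library was left out, compared with 11 from all; the lowest count came without MYC WT replicate 2, and the cause was not tested. Same-numbered replicates of MYC MUT and MYC WT deviated together with correlations of 0.33, 0.15 and 0.05 and were not taken as pairs. The replicate block called 14 other retinoid genes, and 4 of the 10 genes as without it.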
